A study of Homo sapiens with 12 samples.

Results

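The acetylation and dimethylation of lysine 9 of histone H3 were followed around the starts of 7 genes: FOS, FOSL1 and FOSL2 of the Fos family, JUN, JUNB and JUND of the Jun family, and EGR1. Each was taken at its start position on hg19, and the marks were measured in a window of 5 kb either side of it, 10001 bp in all. The starts were chromosome 14 at 75745481 for FOS, chromosome 11 at 65667997 for FOSL1, chromosome 2 at 28615779 for FOSL2, chromosome 1 at 59249785 for JUN, chromosome 19 at 12902310 for JUNB and at 18392466 for JUND, and chromosome 5 at 137801181 for EGR1. The 7 windows held 12 of the 14377 H3K9ac regions in the authors' reproducible set for untreated cells and 11 of the 21098 in the set for treated cells. Merged where they overlapped, the regions of both conditions made 21945, of which 11 lay in the windows, and 9 of those 11 were in the reproducible sets of both conditions.

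The cells were MDA-MB-231, an established human triple negative breast cancer line grown in medium with serum. The protocol given for all samples was overnight serum starvation before treatment, then 500 µM DETA/NO, a donor that releases nitric oxide slowly, for 24 h. The controls were untreated cells, and the labels do not say how long these stayed without serum. Each mark had 2 biological replicates in each condition, 8 libraries with interval lists, and the 4 inputs were not analysed here. The H3K9ac lists differed in size before any gene was considered: the untreated libraries covered 48.3 and 22.8 Mb of the genome and the treated ones 52.1 and 37.8 Mb, replicates 1 and 2 in that order. The lists give called intervals and a score but no reads, so the depth behind each interval is unknown.

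Fos and Jun proteins pair through leucine zippers to form the transcription factor AP-1, which binds the sequence TGACTCA and drives genes of proliferation, invasion and stress responses. FOS, JUNB and EGR1, a zinc finger factor, are classic immediate early genes: serum, growth factors and stress switch them on within minutes, without new protein synthesis, through serum response factor at CArG boxes and through CREB or ATF factors at cAMP response elements. JUND is expressed more steadily, and FOSL1, which encodes FRA-1, is a late, sustained member that is abundant in mesenchymal breast cancer cells. H3K9ac marks the nucleosomes that flank active starts, whereas H3K9me2 marks broad silent domains.

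The DNA just before 4 of the starts is shown, for the contrasts in H3K9ac calls at them: at FOS the stretch was uncalled in untreated cells and fully called in treated cells, at EGR1 the untreated replicates disagreed, and at JUN and JUND the start base was uncalled in every library. The sequences are the 250 bases before the start in RefSeq on GRCh38.p14, read 5′ to 3′ in the direction of transcription. They lie at chr14:75278578-75278827 on the plus strand for FOS, chr5:138465229-138465478 on the plus strand for EGR1, chr1:58784048-58784297 on the minus strand for JUN and chr19:18281623-18281872 on the minus strand for JUND. Capitals mark TGACG, the core of the cAMP response element, on either strand (CGTCA on the other), TGACATCA, the CArG box and TATAAA. The RefSeq starts were not aligned to the hg19 starts, and may differ from them by some bases.
FOS: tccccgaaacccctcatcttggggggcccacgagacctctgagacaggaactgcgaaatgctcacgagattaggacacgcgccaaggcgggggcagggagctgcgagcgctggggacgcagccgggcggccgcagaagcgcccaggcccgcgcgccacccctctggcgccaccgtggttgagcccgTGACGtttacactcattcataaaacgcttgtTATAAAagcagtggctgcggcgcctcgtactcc
EGR1: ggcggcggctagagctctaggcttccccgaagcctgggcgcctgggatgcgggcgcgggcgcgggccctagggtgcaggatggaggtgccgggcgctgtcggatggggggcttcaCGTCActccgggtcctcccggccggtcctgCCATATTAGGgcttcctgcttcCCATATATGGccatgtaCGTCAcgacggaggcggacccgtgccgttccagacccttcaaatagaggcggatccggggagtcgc
JUN: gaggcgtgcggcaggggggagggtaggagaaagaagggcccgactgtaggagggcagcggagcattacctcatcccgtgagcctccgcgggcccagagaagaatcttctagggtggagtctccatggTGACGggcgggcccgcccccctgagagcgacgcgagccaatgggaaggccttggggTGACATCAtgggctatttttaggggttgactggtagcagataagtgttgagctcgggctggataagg
JUND: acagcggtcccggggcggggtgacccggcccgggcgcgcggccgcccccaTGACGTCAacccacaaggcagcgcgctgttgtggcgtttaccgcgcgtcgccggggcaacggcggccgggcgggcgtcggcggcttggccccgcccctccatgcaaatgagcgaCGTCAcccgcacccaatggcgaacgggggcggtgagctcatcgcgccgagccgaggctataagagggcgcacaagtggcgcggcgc

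RefSeq entries were found for 6 of the 7 genes, FOSL1 being the other. All 6 held TGACG on either strand in these 250 bases, as did 21.2% of 35116 RefSeq promoters of the same length. JUND held the full palindrome TGACGTCA, 193 to 200 bases before its start, which includes the core on both strands and occurs in 1.65% of promoters. JUN held TGACATCA, the variant of the AP-1 site through which JUN is known to act on its own promoter, 60 to 67 bases before its start (2.37% of promoters). EGR1 alone of the 6 held the CArG box, with a pair of them at 96 to 105 and 74 to 83 bases before the start (1.16% of promoters). TATAAA was present in FOS and JUNB (10.7% of promoters), and CCAAT in JUN, JUNB and JUND (32.0% of promoters). TGACTCA was in none of the 6 and in 4.20% of promoters. These are matches of letters, searched on both strands in the 250 bases only. Sites farther upstream were not searched, so a motif not found here may lie there.

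H3K9ac was called in all 7 windows in all 4 libraries, and it covered more of every window in treated than in untreated cells. The covered length of a window is the number of its bases that lie under a called peak. At each gene the lower treated library exceeded the higher untreated one. The ratio of the treated to the untreated mean ran from 1.35 at FOSL2 to 2.82 at FOS, with a median of 1.66. The same was true of most windows acetylated in both conditions. The background was 11387 windows of equal width, centred on the regions present in both reproducible sets. In these the treated pair lay above the untreated pair in 86.1% and below it in 0.536%. Their median ratio was 1.74. The count of 7 of 7 is therefore near the background and says little about these genes in particular. With 2 libraries against 2, an exact two-sided permutation test cannot give a p below 0.333, and it gave 0.333 for the covered length of each of the 7 genes. Tiles of 10 kb laid along the genome, each with a called peak in some library, were also used in place of those windows. The treated pair lay above the untreated pair in 15.6% of 130104 tiles and below it in 6.63%. The median treated minus untreated difference over the tiles was -107.5 bp, so longer treated coverage did not hold for most tiles.

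**Figure D1:**
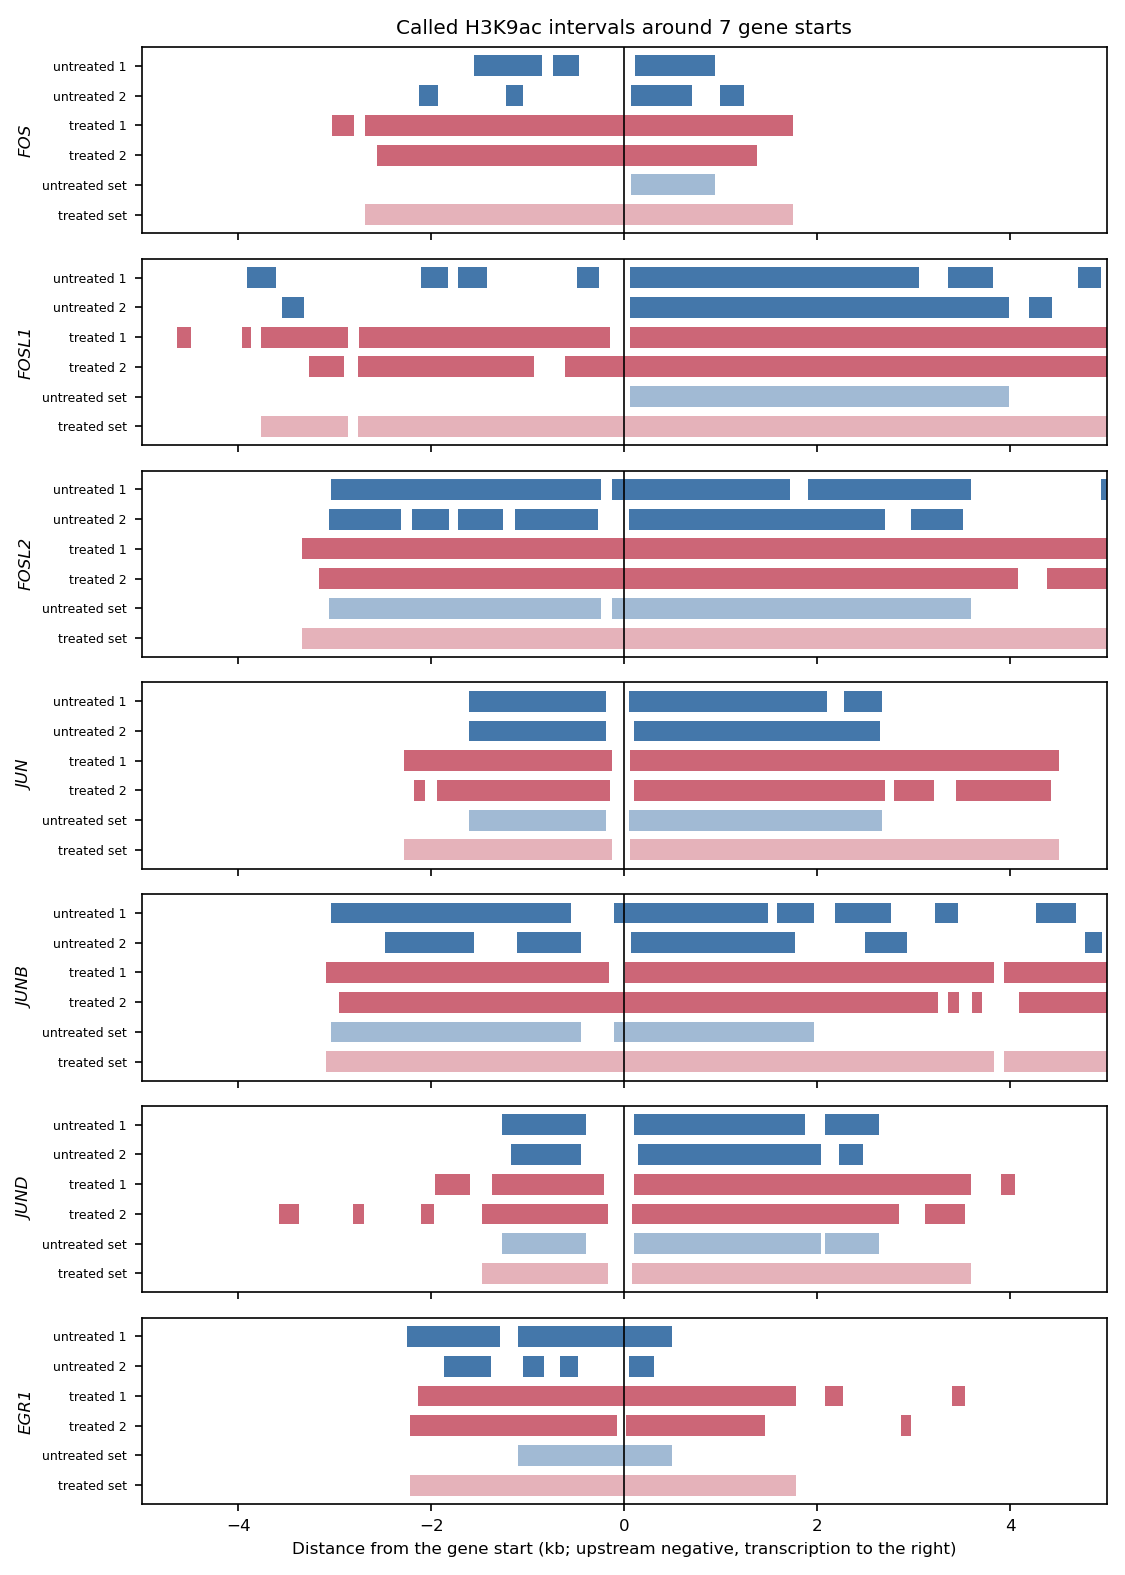
Called H3K9ac intervals around the 7 gene starts, plotted by distance from the start in kb with transcription to the right; rows are the 4 libraries (blue untreated, red treated) and, in paler colour, the authors' reproducible set of each condition. Intervals that leave the window are clipped at 5 kb; the treated bars are longer in every gene, and the start of JUN and of JUND lies in an uncalled gap in all 4 libraries.

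FOS had the largest ratio of the 7. Its window was covered over 1805 and 1249 bp in untreated cells, in 3 and 4 separate peaks, and over 4668 and 3942 bp in treated cells, in 2 peaks and 1 peak. The means were 1527 bp ± 393 and 4305 bp ± 513 (SD, n = 2). The untreated peaks left the start itself bare, with no called base in the 250 bp before it, and the treated peaks ran across it without a break. The widest treated peak reached from 2688 bp upstream to 1747 bp downstream in replicate 1 and from 2565 bp upstream to 1376 bp downstream in replicate 2. The authors' reproducible set held a region of 870 bp in untreated cells, beginning 72 bp downstream of the start, and a region of 4436 bp in treated cells. Most of the added length was upstream, at 978 and 369 bp untreated against 2920 and 2565 bp treated. Downstream, over the transcribed part, it was 827 and 880 bp against 1747 and 1376 bp.

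FOSL1 had the largest absolute difference. FRA-1, its product, lacks the C-terminal activation domain of FOS. Its window was covered over 4827 and 4396 bp in untreated and 8672 and 7810 bp in treated cells (means 4611.5 bp ± 305 and 8241 bp ± 610, SD, n = 2). Untreated H3K9ac lay mostly on the transcribed side, at 3702 and 4170 bp of the 5 kb downstream, and treated H3K9ac filled that side, at 4941 and 5000 bp. Upstream the untreated libraries had 1125 and 226 bp and the treated ones 3731 and 2809 bp. The treated peak over the gene was 9784 and 10481 bp wide and left the window, whereas the widest untreated peak was 2995 and 3929 bp. In windows of 10 kb either side the untreated libraries had 8989 and 7813 bp and the treated ones 17768 and 16112 bp. CCDC85B is the next gene on that side in the RefSeq table; which part of the wide peak lies over it was not measured here. The FOSL1 peak was among the highest-scoring of the whole list in every library, at ranks 41 of 120630 and 37 of 59724 in untreated and 15 of 79538 and 5 of 69151 in treated cells by the authors' score.

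FOSL2, which encodes FRA-2, was already broadly acetylated. Peaks covered 6396 and 5650 bp of its window in untreated and 8344 and 7863 bp in treated cells (means 6023 bp ± 528 and 8103.5 bp ± 340, SD, n = 2). It had the longest untreated coverage and the smallest ratio of the 7. A window can hold no more than 10001 bp, and whether this limit lowered the ratio was not tested. With 10 kb either side, FOSL2 had 6886 and 5650 bp untreated and 8855 and 8269 bp treated. The ratio of 1.37 was again the smallest of the 7. The untreated signal was broken into 4 and 6 peaks, and the treated signal into 1 and 2. In the reproducible sets, regions of 2817 and 3719 bp in untreated cells stood where treated cells had a single region of 8646 bp. The difference lay mainly downstream, at 3472 and 3197 bp untreated against 5000 and 4696 bp treated, while upstream the values were 2923 and 2453 bp against 3343 and 3166 bp.

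JUN encodes the principal partner of the Fos proteins. Its window was covered over 3867 and 3967 bp in untreated cells, a close pair, and over 6603 and 5914 bp in treated cells (means 3917 bp ± 70.7 and 6258.5 bp ± 487, SD, n = 2). In all 4 libraries peaks lay on both sides of an uncalled gap over the start. The gap reached from 191, 187, 124 and 150 bp upstream to 47, 105, 60 and 100 bp downstream, untreated replicates first. The outer edge downstream lay at 2668 bp in the untreated reproducible set and at 4505 bp in the treated one, and upstream at 1613 and 2280 bp.

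JUND, the Jun protein linked to quiescence and protection from oxidative stress, also had peaks on both sides of an uncalled start. Its window was covered over 3213 and 2867 bp in untreated and 5177 and 4938 bp in treated cells (means 3040 bp ± 245 and 5057.5 bp ± 169, SD, n = 2). The start base was uncalled in all 4 libraries, and the nearest called base upstream was at 393 and 450 bp in untreated and 207 and 170 bp in treated cells. The uncalled stretch before the start was thus shorter in both treated libraries. The treated downstream region of the reproducible set reached 3595 bp, where the untreated set ended at 2638 bp.

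JUNB, a Jun protein that often restrains JUN, was the Jun gene with the least alike untreated replicates. Peaks covered 5686 and 3888 bp in untreated and 7827 and 7347 bp in treated cells (means 4787 bp ± 1271 and 7587 bp ± 339, SD, n = 2). The share of bases called in either untreated library that were called in both was 0.537, against 0.935 at JUN and 0.801 at JUND. The difference of 2800 bp was made up of 861 bp upstream and 1939 bp downstream. In the reproducible sets, regions of 2584 and 2065 bp in untreated cells stood where treated cells had 1 of 6920 bp. The start lay within the treated region and also within the untreated region of 2065 bp, from 104 bp upstream to 1960 bp downstream. By library, the start base was called in untreated replicate 1 and treated replicate 2, and uncalled in untreated replicate 2 and treated replicate 1. A separate treated region of 1255 bp, from 3933 to 5187 bp downstream, met no region of the untreated set. Each untreated library did have a short peak within it, from 4262 to 4683 bp in replicate 1 and from 4772 to 4946 bp in replicate 2.

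EGR1 gained mostly on the transcribed side. Its window was covered over 2557 and 1165 bp in untreated and 4236 and 3702 bp in treated cells (means 1861 bp ± 984 and 3969 bp ± 378, SD, n = 2). Downstream of the start, untreated peaks covered 491 and 265 bp and treated peaks 2097 and 1551 bp. Upstream, untreated replicate 1 had 2065 bp and replicate 2 had 900 bp, against 2138 and 2151 bp treated, so the upstream difference rested mainly on untreated replicate 2. The 250 bp before the start, where RefSeq has the CArG boxes printed above, were called over 250 and 0 bp in untreated and 250 and 176 bp in treated cells. The groups overlapped there.

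**Figure D2:**
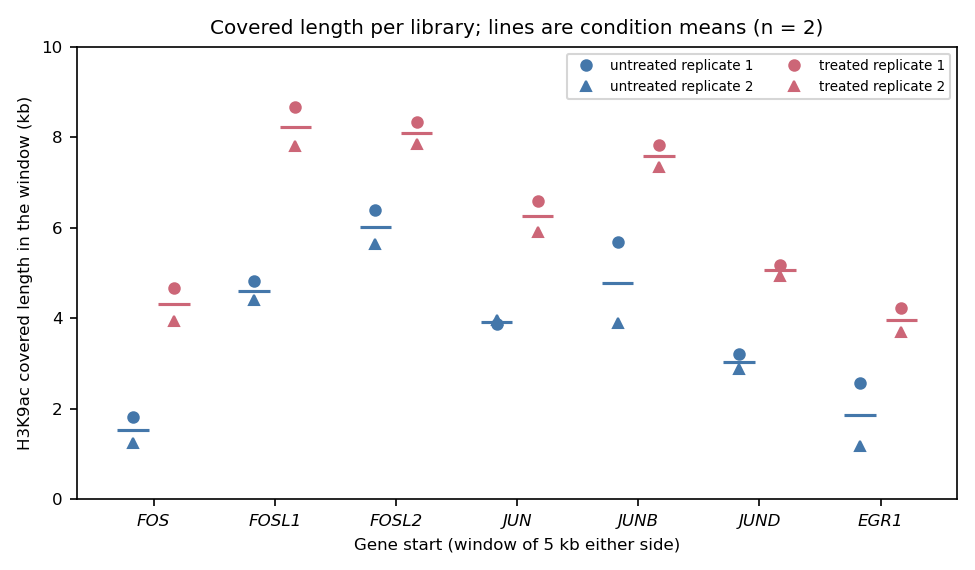
H3K9ac covered length in kb in the window of each gene start; circles are replicate 1, triangles replicate 2, blue untreated, red treated, and lines the mean of 2 libraries. Treated libraries lie above untreated ones at each of the 7 starts, and the untreated pair is farthest apart at JUNB (5686 and 3888 bp).

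The orders of the 7 genes in the 2 conditions were alike but not the same. By mean covered length in untreated cells the order was FOSL2, JUNB, FOSL1, JUN, JUND, EGR1 and FOS, and in treated cells FOSL1, FOSL2, JUNB, JUN, JUND, FOS and EGR1. The libraries of several neighbours overlapped: in untreated cells JUNB with FOSL2, FOSL1 and JUN, and EGR1 with FOS, and in treated cells FOSL1 with FOSL2 and JUNB, and FOS with EGR1. FOS and EGR1 were the least covered in both conditions. They also had the lowest-ranking peaks: the top FOS peak stood in the first 5.34% and 23.1% of the untreated lists by score and in the first 6.66% and 8.22% of the treated ones, and that of EGR1 in the first 10.75% and 17.5% and the first 9.70% and 9.42%. At the other 5 genes the top peak was in the first 6.56% of every list. List lengths differ, so these ranks show no change between conditions.

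The difference between conditions was present on both sides of the starts. Upstream and downstream, each treated library exceeded each untreated one at 7 of 7 genes. In the 11387 background windows, which have no direction, the same held for 77.6% on the side of lower and 77.6% on the side of higher coordinates. The larger part of the mean difference was upstream at FOS (2069 of 2778 bp) and FOSL1 (2594.5 of 3629.5 bp), and downstream at FOSL2 (1513.5 of 2080.5 bp), JUN (1733.5 of 2341.5 bp), JUNB, JUND (1170 of 2017.5 bp) and EGR1 (1446 of 2108 bp). Bases called in both treated and neither untreated library numbered 953 at JUND to 2353 at FOSL1, against a median of 536 over the background windows. No base in the 7 windows was called in both untreated and neither treated library, which was also so in 96.0% of the background windows.

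Averaged over the 7 genes, the 4 libraries met just downstream of the start, parted on both sides of it and met again far upstream. In the bin from 200 to 299 bp downstream every gene was fully covered in every library. In the 1 kb before the start the mean covered share was 64.6% and 42.9% in untreated and 90.9% and 89.8% in treated cells, and between 1 and 2 kb upstream it was 67.6% and 41.5% against 96.2% and 92.0%. Between 3 and 4 kb downstream it was 19.4% and 21.4% against 67.5% and 52.5%. Between 4 and 5 kb upstream it was 0% and 0% in untreated and 2.0% and 0% in treated cells. In the last 100 bp before the start coverage dipped to 42.9% and 0% in untreated and 42.9% and 60.9% in treated cells, and here the conditions overlapped. The start base itself was called in 3 and 0 of the 7 genes in untreated and in 3 and 4 in treated cells.

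**Figure D3:**
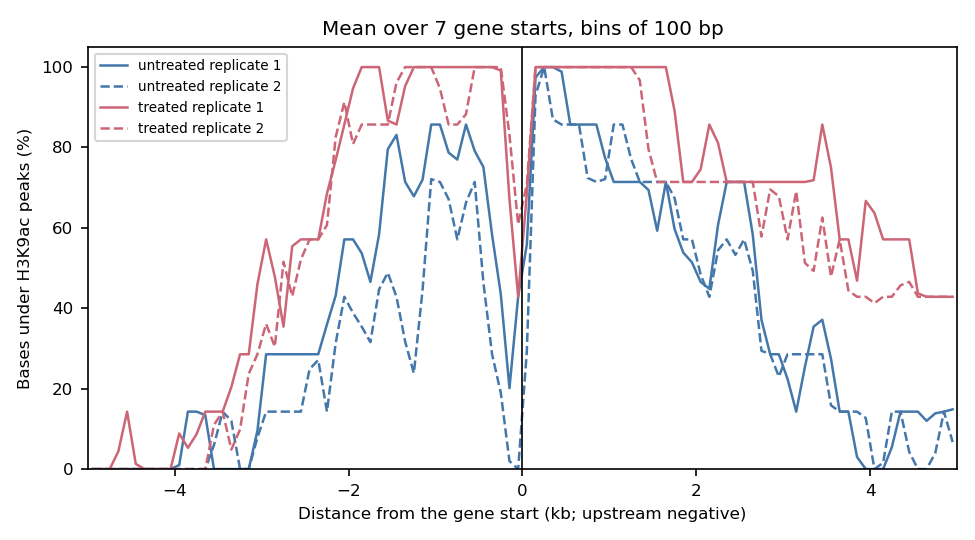
Share of bases under H3K9ac peaks, in percent, averaged over the 7 genes in bins of 100 bp, against distance from the start in kb with transcription to the right; solid lines are replicate 1, dashed lines replicate 2, blue untreated, red treated. All 4 lines reach 100% between 200 and 299 bp downstream and dip just before the start.

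Replicates were more alike in treated than in untreated cells at 5 of the 7 genes. How often this held among the background windows was not measured, so the count shows nothing particular to these genes. The untreated libraries also differed more in the length of genome they covered (48.3 and 22.8 Mb) than the treated ones (52.1 and 37.8 Mb). The Jaccard index, the bases called in both replicates over those called in either, was 0.335 untreated and 0.844 treated at FOS, 0.456 and 0.789 at EGR1, 0.537 and 0.900 at JUNB, 0.601 and 0.853 at FOSL1 and 0.825 and 0.942 at FOSL2. At JUN it was 0.935 and 0.896 and at JUND 0.801 and 0.748. FOS and EGR1, with the largest ratios of treated to untreated length, thus had the least alike untreated replicates. The part of this unlikeness in the ratios was not tested.

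With all background windows in the same fit, FOS, FOSL1 and EGR1 were called higher in treated cells and the other 4 did not pass. Each window was tested for treated against untreated, not against the other windows, and 98.7% of windows had a positive difference. The limma test was fitted to the arcsine square root of the covered share in 11394 windows, the 7 included, and called 3827 of them higher, 33.6%, and 37 lower, 0.325%, at a Benjamini-Hochberg adjusted p under 0.05. The difference on that scale was 0.316 ± 0.0799 (SE) at FOS (limma, adjusted p = 0.0024), 0.394 ± 0.129 at FOSL1 (limma, adjusted p = 0.0165) and 0.242 ± 0.0802 at EGR1 (limma, adjusted p = 0.0178). JUNB had 0.294 ± 0.124 (limma, adjusted p = 0.0515), JUN 0.237 ± 0.109 and JUND 0.207 ± 0.0956 (limma, adjusted p = 0.070 for each), and FOSL2 0.232 ± 0.137 (limma, adjusted p = 0.139). In this fit the SEs came from the spread fitted over all windows, not from each gene's own replicates. JUN, with untreated values of 3867 and 3967 bp, had a larger SE than EGR1, with 2557 and 1165 bp. Without the mean-variance trend all 7 had the same SE, 0.0717. Which genes passed thus does not reflect how well their own replicates agreed. The 3 of 7 that were called stand beside a background of 33.6%. The median difference over all windows was 0.147, and quantile normalization, which makes the libraries' distributions equal, brought it to -0.0045. With it limma called 92 windows higher, 0.807%, and 52 lower, 0.456%, and none of the 7 genes, of which FOS alone had an unadjusted p under 0.05. FOS then had a difference of 0.149 ± 0.0408 (limma, adjusted p = 0.102, over 12 alternatives 0.00028 to 0.263), above 97.3% of windows. FOSL1 had 0.0822, EGR1 0.0755 and JUNB 0.0125, while JUND had -0.0056, JUN -0.024 and FOSL2 -0.0835. Among tiles of 10 kb, of which limma called 0.554% higher, FOS alone of the 7 was called, and among windows on the regions of either set, of which limma called 20.7% higher, FOS and EGR1 were. Fits that left out 1 library had 1 library in that condition, assumed to vary like the pair in the other. None of the 7 was called without untreated replicate 2 (limma, adjusted p = 0.263 for FOS, 0.313 for FOSL1 and 0.474 for EGR1), with differences of 0.277, 0.373 and 0.151. None was called without treated replicate 1 either (limma, adjusted p = 0.0901, 0.194 and 0.211), with differences of 0.279, 0.337 and 0.215. FOS and EGR1 were called without untreated replicate 1, where FOSL1 had a difference of 0.416 (limma, adjusted p = 0.101), and 6 of the 7, all but FOSL2, without treated replicate 2. The number of windows called higher in these fits was 94 (0.825%), 65 (0.57%), 1820 (16.0%) and 4780 (42.0%), in the order given. Over these 4 fits the difference ran from 0.277 to 0.354 at FOS, from 0.337 to 0.451 at FOSL1 and from 0.151 to 0.333 at EGR1.

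Against the background windows FOSL1, FOSL2, JUN, JUNB and JUND stood out by length more than by ratio. FOS stood higher by ratio than by length, and EGR1 did so in untreated cells only. The median covered length of the 7 genes was 3917 bp untreated and 6258.5 bp treated, where the medians over the background windows were 1546.5 and 2730 bp. In treated cells FOS was above 85.5% of windows by length and EGR1 above 80.9%. FOSL2, JUNB, FOSL1 and JUN were above 98.1% to 99.8% of windows in untreated cells, JUND above 93.4%, EGR1 above 66.0% and FOS above 48.9%. The median difference between conditions was 2341.5 bp over the 7 genes and 1157.5 bp over the windows. By ratio, FOS was above 94.1% of windows, EGR1 above 78.0% and FOSL1 above 54.7%, whereas JUND, JUN, JUNB and FOSL2 were above 43.0%, 36.3%, 34.9% and 12.4%. The background windows are centred on regions that were picked from the same lists, and the 7 are centred on gene starts, so the comparison is a description.

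**Figure D4:**
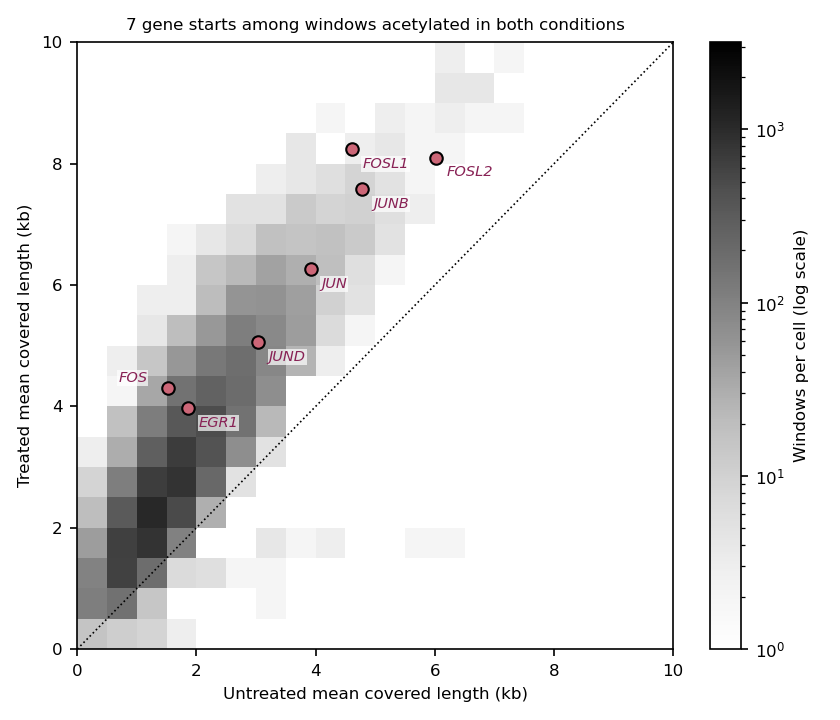
Mean H3K9ac covered length in treated against untreated cells, in kb, for 11387 windows centred on regions of both reproducible sets (grey cells of 500 bp, shaded by number on a log scale) and for the 7 gene starts (red points); the dotted line marks equal length. All 7 points lie above the dotted line, from FOS at 1527 and 4305 bp to FOSL2 at 6023 and 8103.5 bp.

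H3K9me2 was absent from all 7 windows as called: islands covered 0% of each window in each of the 4 libraries, so no change between conditions could be measured. Over the whole genome, islands covered 235.2 and 254.3 Mb in untreated and 284.9 and 226.3 Mb in treated cells, replicates 1 and 2. The share of background windows without an island, and their distances to islands, were not measured. The 0% and the distances below are thus not shown to be particular to these genes. At JUN the distance from the start to the nearest island in any library was 295.8 kb, at FOS 448.0 kb, at EGR1 533.8 kb, at FOSL2 1137.7 kb, at FOSL1 1417.5 kb, at JUND 1655.5 kb and at JUNB 2942.7 kb. At JUN the nearest island was that of treated replicate 1, on chromosome 1 from 58940001 to 58954000, and in the other libraries the distance was up to 850.8 kb. The longer H3K9ac calls in treated cells thus lay where no H3K9me2 island was called in either condition. An island list holds only regions above the authors' score limit, so a lower level of H3K9me2 would not be seen here.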

How the data were processed

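Per the submitters' processing notes, the build was hg19 and the tools included SICER, MACS2, Picard, BWA 0.7.5 and Trimmomatic 0.32, with no role stated. How each list was called, and with which input, is not given in the sources used here. Data came as 10 interval lists deposited by the authors. Their other deposited values are interval starts and ends, used as positions counted from 1. Each H3K9ac peak and H3K9me2 island carries the authors' score, used only to rank within a list. The deposited reproducible H3K9ac sets carry a value per region taken to be −log10 of the irreproducible discovery rate, since it starts at the value of a rate of 0.05. H3K9me2 ends name the last base on a grid of 500 bp and were extended by 1 bp.

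Overlapping intervals were merged and covered bases counted in Python 3.11.15 with pandas 2.3.3 and numpy 2.4.6; overlap meant at least 1 shared bp. limma 3.58.1 in R 4.3.3 was fitted with a mean-variance trend; windows at 0 in all 4 libraries were left out. Code was tested on simulated data. All 7 genes were named whatever their values. The members and lists were chosen with earlier results of these data known. Strand came from RefSeq promoters (GRCh38.p14) and, for FOSL1, from background knowledge. Other immediate early genes need hg19 positions and were not used here. The labels number replicates alike in both conditions without naming a shared batch or day. Alternatives changed the window, the peaks kept, the background windows, the scaling, the limma settings and the libraries.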

Additional observations from a re-analysis of the deposited data

How the results depend on the processing

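The treated mean exceeded the untreated mean in covered H3K9ac length in all 42 values recomputed for the 7 genes. These values used another window, fewer peaks or the replicate block (which by construction leaves each difference unchanged). In the main set of 11394 windows the difference in covered share was positive in 98.57%. The count of 42 therefore says little about these genes in particular. Without 1 library the difference ran from 2415 to 3141 bp at FOS, 3198.5 to 4060.5 at FOSL1, 1707.5 to 2453.5 at FOSL2, 1997 to 2686 at JUN, 1901 to 3699 at JUNB, 1844.5 to 2190.5 at JUND and 1412 to 2804 at EGR1. H3K9me2 differences were 0 under every alternative run, including windows of 50 kb either side.

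Counts of windows called by limma moved more; their cause was not tested. Against 3827 higher and 37 lower, tiles of 10 kb gave 721 and 7, quantile normalization 92 higher, equal numbers of top-scoring peaks 6435 higher, and windows on regions of either set 489 lower. Leaving out 1 library gave 65 to 4780 higher and 0 to 37 lower; the 0, without treated replicate 1, stands beside 1966 windows at an unadjusted p under 0.05. With the replicate number as a block 8521 were called higher, 74.8%, and all 7 genes. Deviations of same-numbered libraries correlated at -0.065 across windows, but this cannot show a shift shared by all windows. Replicate 1 covered more of the genome than replicate 2 in untreated (48.3 and 22.8 Mb) and treated cells (52.1 and 37.8 Mb). The numbers were not taken as pairs because the labels name no shared batch or day. After quantile normalization the arcsine differences turned to -0.083 at FOSL2, -0.024 at JUN and -0.0056 at JUND. Equal numbers of top-scoring peaks gave 6 called genes beside 56.5% of windows called higher, the untransformed share 4 beside 32.5% (3701 windows) and no trend 7 beside 39.1% (4452). Depth is unknown, which limits what an uncalled base can show.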
